A study of Mus musculus with 2 samples.

Results

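Oligodendrocyte-lineage-like cells were 192 of 10829 cells in a pair of single-cell libraries from mouse medulloblastoma, a tumour of the cerebellum. Members were chosen by measured UMIs: a cell counted when it held at least 500 of them (unique molecular identifiers, the count of captured messenger RNA molecules) and at least 1 UMI of at least 3 of 8 genes. These 8 genes, called rule markers here, were Sox10, Pdgfra, Gpr17, Cspg4, Cacng4, Gjc3, Ptprz1 and Serpine2. All other cells of the same library with at least 500 UMIs served for comparison. The tumours came from hGFAPcre;Ptchc/c mice, in which a Cre recombinase driven by a human GFAP promoter acts on a conditional allele of Ptch1, whose product holds Sonic hedgehog (SHH) signalling in check. Both groups carried this genotype, and no group without it was analysed here. The groups differed in age, postnatal day 12 (P12) against days 24 to 30 after birth (P24-30), with 1 Drop-seq library each. The labels used here do not say how many animals a library pools. At P12, 129 of 5991 cells were members, or 2.15% (exact 95% interval 1.80 to 2.55%). At P24-30, 63 of 4838 cells were members, or 1.30% (1.00 to 1.66%).

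Oligodendrocyte progenitors divide in the young brain, carry the platelet-derived growth factor receptor Pdgfra and the proteoglycan Cspg4 (NG2), and depend on the transcription factors Olig2 and Sox10. As they commit, they lose Pdgfra, pass through a stage marked by the receptor Gpr17, and then make the myelin that wraps axons. In the cerebellum they arise apart from the granule neuron precursors, the cells in which SHH medulloblastoma is known to begin.

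Since each age has 1 library, no value below has a replicate check. Age, library preparation and the way each file was counted cannot be told apart, and all intervals below cover counting error only. The members held 261529 UMIs at P12 (630 to 9007 per cell, median 1659, against 1781 in other cells) and 242513 at P24-30 (602 to 50208, median 2120, against 2191). The libraries shared no cell barcode. More than 20% of UMIs were mitochondrial in 14 P12 members and 4 P24-30 members. The rule used the same UMIs as every value below, so differences between members and other cells are descriptions of the chosen cells and were not tested.

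The number of cells had a second peak at 5 and 6 rule markers at P12 and declined beyond 4 at P24-30. At P12, 150 cells had 2 markers, 29 had 3, 18 had 4, 31 had 5, 30 had 6, 17 had 7 and 4 had all 8. At P24-30 the same steps held 104, 15, 18, 12, 9, 6 and 3 cells. Members with 5 or more markers therefore numbered 82 at P12 and 30 at P24-30.

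**Figure D1:**
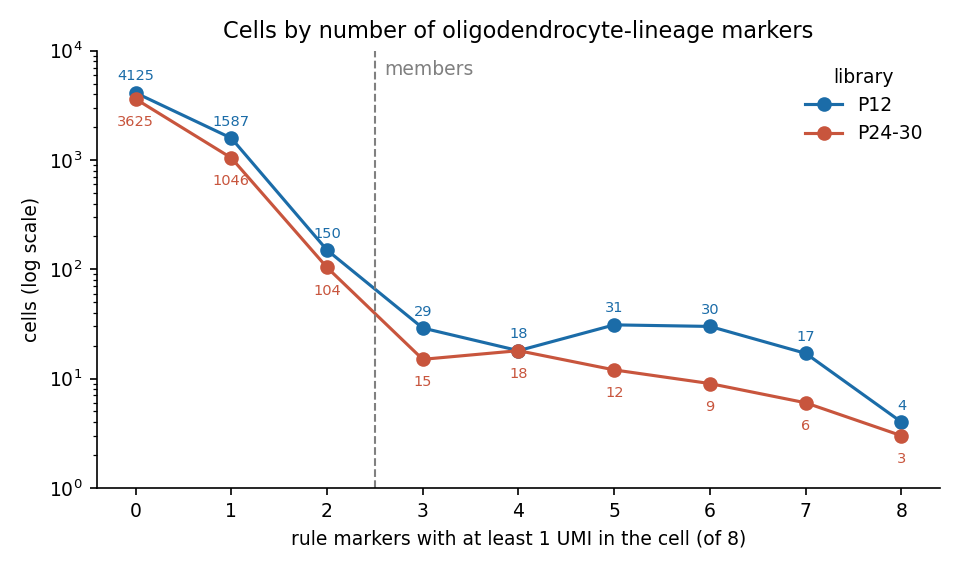
Number of cells (y axis, log scale) by the number of the 8 rule markers with at least 1 UMI (x axis), with a line for each library and the membership threshold dashed. At P12 a second rise stands at 5 and 6 markers (31 and 30 cells), while at P24-30 the counts decline from 18 cells at 4 markers to 3 cells at 8.

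Olig1 and Olig2, transcription factors of the lineage that the rule did not use, were checked against the label. An Olig1 UMI was present in 82 of 82 P12 members with 5 or more markers and in 29 of 30 at P24-30. With 4 markers it was present in 18 of 18 cells at P12 and in 11 of 18 at P24-30, and with 3 markers in 14 of 29 and 7 of 15. Olig1 was not particular to members. A UMI of it was present in 1248 of 5862 other cells at P12 (21.3%) and in 479 of 4775 at P24-30. Astrocyte and Bergmann glia-like cells held one in 13 of 28 and 1 of 17 cells. Olig2 was detected in 59 of 82 and 19 of 30 members with 5 or more markers, and in 4.15% and 3.48% of other cells. Just outside the threshold, P12 cells with 2 markers held 290 counts per 1000000 UMIs (CPM) of Olig1 and 33.0 CPM of Cspg5, and P24-30 cells 86.9 and 5.43 CPM. Just inside it, cells with 3 markers held 641 and 329 CPM at P12, and 289 and 77.7 CPM at P24-30. Cells with 5 or more markers held 3195 and 2041 CPM at P12, and 2304 and 1300 CPM at P24-30. Olig1 was thus detected in all but 1 of the members with 5 or more markers (called the 5-or-more members below), in part of those with 3, and in a smaller share of other cells.

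Several members carried genes of other cells, with astrocyte and granule lineage genes in a larger share of members at P24-30. The deepest P24-30 member, also the deepest cell of its library, held 50208 UMIs, or 20.7% of all member UMIs of that age. It had 3 rule markers, no Olig1, and 4733 UMIs of Ttr, 1319 of Enpp2 and 109 of Kl, genes of the choroid plexus. The second deepest had 26975 UMIs with 143 of S100b, and the third 12016 UMIs with 50 of Slc1a3, a glutamate transporter of astrocytes. Together these 3 cells supplied 36.8% of the P24-30 member UMIs, against 8.46% for the 3 deepest at P12. Aqp4, Gdf10, Aldoc, Gja1, Gjb6, Agt, Slc6a11, Hopx and Gfap served as per-cell markers of astrocytes and Bergmann glia. At least 3 of them were detected in 9 of 129 P12 members and in 13 of 63 P24-30 members. With 5 or more rule markers this held for 1 of 82 and 2 of 30 members. At least 3 of the granule lineage genes were found in 11 of 129 and 22 of 63 members, and in 4 of 82 and 7 of 30 with 5 or more rule markers. Microglia markers reached 3 in 2 P12 members and 1 P24-30 member. At least 3 endothelial or pericyte markers were found in 1 P12 member and in 0 of 63 at P24-30. Genes at least 2-fold higher in P24-30 members than in other cells numbered 414 over all members. They numbered 230 without the 3 deepest members, 258 without members marked by glia, microglia or vessels, and 145 without members marked by granule lineage genes.

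Cell names in the P24-30 file bear 16 tags (G1 to G16) whose meaning is not stated. Tag G9 held 10 members among 50 cells (20%, 10.03 to 33.7%), 9 of them with at least 3 astrocyte markers and none with 5 or more rule markers. Tags G13 and G14 held 11 and 10 members, 7 of each with 5 or more rule markers, among 506 and 308 cells. Tag G16 held 0 among 417 cells (upper bound 0.881%).

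The rule markers themselves were unequal in how well they set the members apart. The level of Sox10 in members was 233 CPM at the younger and 169 CPM at the older age, and other cells held 2 and 7 UMIs of it in all. Gpr17, a receptor of committed precursors, was at 509 and 268 CPM, with 13 and 6 UMIs in other cells. Ptprz1, a receptor phosphatase, was at 1575 and 499 CPM in members against 11.7 and 4.18 CPM in other cells. Astrocyte and Bergmann glia-like cells held 623 and 126 CPM of it. Pdgfra was different: its level was 726 and 309 CPM in members, and 141 and 78.0 CPM in other cells. A Pdgfra UMI was seen in 1287 of 5862 other cells at P12 (22%) and in 750 of 4775 at P24-30 (15.7%). In microglia-like cells, which should lack it, 5 of 101 P12 cells (4.95%, median depth 1954 UMIs) and 1 of 56 P24-30 cells (1.79%, median depth 2160.5 UMIs) held one. With each cell thinned to 500 UMIs, Pdgfra was present in 6.98% of other P12 cells and in 0 of 101 microglia-like cells (upper bound 3.59%). The thinned share in other P24-30 cells was 3.90%, against 0 of 56 microglia-like cells, whose upper bound of 6.38% includes that share. Cacng4, a subunit of AMPA receptor channels, was at 1105 and 1447 CPM in members and 26.3 and 37.1 CPM in other cells. Serpine2, a protease inhibitor, was at 1575 and 590 CPM in members and also at 721 and 292 CPM in microglia-like cells. In astrocyte and Bergmann glia-like cells its level was 744 and 147 CPM. Gjc3, a gap junction protein, was at 336 and 338 CPM, and Cspg4 at 516 and 181 CPM. These are levels over all members, which the rule itself raised.

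Over all genes, the 8 rule markers included, 382 of 3603 genes with enough UMIs (at least 30, found plus expected, in members; 10.6%) were at least 2-fold higher in P12 members than in other cells with an interval above 1, and 420 (11.7%) at least 2-fold lower. At P24-30 these were 414 of 2889 genes (14.3%) higher and 445 (15.4%) lower. Among members with 5 or more markers, 288 of 2439 genes (11.8%) were higher and 388 (15.9%) lower at P12, and 95 of 837 (11.4%) higher and 131 (15.7%) lower at P24-30. Cspg5, which encodes the proteoglycan neuroglycan C and lies on chromosome 9 (mm10, 110243783 to 110262576, plus strand), ranked first among genes high at both ages. It was at 1617 CPM in P12 members (423 UMIs in 95 of 129 cells) against 4.42 CPM in other cells, a ratio of 366 (275 to 497). At P24-30 it was at 507 CPM (123 UMIs in 41 of 63 cells) against 2.68 CPM, a ratio of 189 (128 to 289). In the 5-or-more members its level was 2041 and 1300 CPM.

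The 20 genes that stood highest above other cells at both ages fell into a few kinds. Pllp and Cnp, a membrane protein and an enzyme of myelin, were 189 and 59.1 times higher at P12 and 118 and 27.0 times higher at P24-30. In the 5-or-more members these ratios were 246 and 57.2 at P12, and 293 and 40.6 at P24-30. Among receptors and channels, Gpr37l1 was 91.8 and 125 times higher, and Ednrb, an endothelin receptor of glia, 63.0 and 96.9 times. Ramp1, a receptor-modifying protein, was 43.3 and 64.6 times higher. Matrix and adhesion genes were the secreted Spon1 (121 and 137 times), the heparan sulfatase Sulf2 (67.8 and 31.0 times) and the contactin Cntn1 (83.3 and 45.6 times). At P24-30 the ratio in the 5-or-more members was 286 for Spon1, 82.1 for Sulf2 and 69.8 for Cntn1. Fabp7, a fatty acid binding protein of radial glia and glial progenitors, was at 2466 CPM in P12 members against 61.2 CPM in other cells. At P24-30 it was at 639 against 12.2 CPM. It was not particular to members, with 2260 and 879 CPM in astrocyte and Bergmann glia-like cells. The list also held, among others, 3110035E14Rik, Slc35f1, Scrg1, Slc38a3, Meg3, S100a13, Plekhb1, Phlda1 and Ttyh1.

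**Figure D2:**
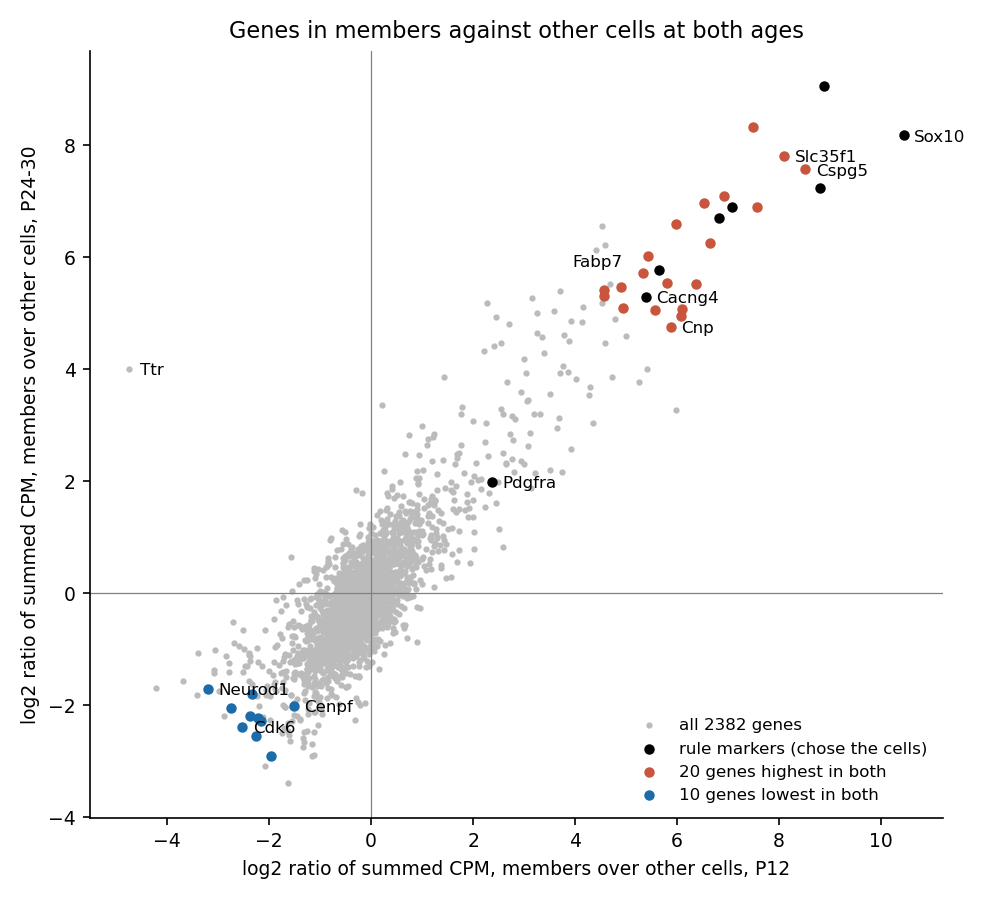
Log2 ratio of summed CPM in members over other cells at P12 (x axis) and P24-30 (y axis) for the 2382 genes with enough UMIs at both ages, one point per gene. The rule markers (black) chose the cells; the 20 highest genes (red) lie in the same corner, the 10 lowest (blue) in the opposite one, and Ttr stands apart at the upper left.

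Of 26 oligodendrocyte progenitor genes listed beside the rule markers, 20 had enough UMIs at P12 and 19 of those were past 2-fold higher, and 12 had enough at P24-30, with 11 higher. None was past 2-fold lower. Their median log2 ratio was 5.60 at P12 and 4.87 at P24-30, against -0.16 and -0.17 over all genes with enough UMIs. A raised list was not particular to this lineage. Of astrocyte and Bergmann glia genes with enough UMIs, 5 of 5 at P12 and 6 of 6 at P24-30 were past 2-fold higher (medians 3.70 and 5.33). That list summed to 1185 and 2783 CPM in members, 554 and 1117 CPM in the 5-or-more members, and 99.9 and 92.3 CPM in other cells. Committed precursor genes had 7 of 8 past 2-fold higher at P12, with 1 lower, and 5 of 6 higher at P24-30, and myelin genes 6 of 7 and 5 of 6. Genes low everywhere fail the minimum of UMIs, so these counts cover the better detected genes. Olig1 was at 2505 CPM in P12 members and 173 CPM in other cells, and at 907 and 59.0 CPM at P24-30. Olig2 was at 531 and 27.1 CPM, then 206 and 16.1 CPM. Of the lineage transcription factors as a whole, 3 of 21 were past 2-fold higher at P12 and 6 lower, and at P24-30 2 of 17 were higher and 3 lower. Over all genes the shares were 10.6% higher and 11.7% lower at P12, and 14.3% and 15.4% at P24-30. Sox2, one of the higher genes, was at 157 CPM in P12 members against 11.4 CPM in other cells, and at 148 against 6.11 CPM at P24-30. Nfib and Nfia, factors that are abundant in granule neurons, were at 524 and 421 CPM in P12 members against 1976 and 1291 CPM in other cells.

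Ion channels and transmitter receptors were among the groups higher in members, with 10 of 11 genes past 2-fold higher at P12 and 5 of 7 at P24-30, and 1 past 2-fold lower at each age (median log2 ratios 3.21 and 2.15). The list summed to 3973 and 3328 CPM in members and 1059 and 1188 CPM in other cells. Astrocyte and Bergmann glia-like cells held 2788 and 3161 CPM, so the level was not particular to members. Gria2, Gria3 and Gria4 encode AMPA receptor subunits. Gria3 was at 356 CPM in P12 members against 38.3 CPM in other cells, and at 157 against 35.3 CPM at P24-30. Gria4 was at 302 against 63.9 CPM, then 400 against 61.6 CPM. The potassium channel Kcnj10 was at 356 and 342 CPM against 15.3 and 9.45 CPM. Of adhesion and cell surface genes, 14 of 18 were past 2-fold higher at P12 and 11 of 17 at P24-30 (medians 2.51 and 1.60). Of extracellular matrix genes, 10 of 11 and 8 of 9 were higher (medians 3.04 and 3.93). At P24-30 the matrix sum was 10119 CPM in all members, 5216 CPM in those with 5 or more markers, 14276 CPM in astrocyte and Bergmann glia-like cells and 10202 CPM in microglia-like cells. The growth factor Ptn was at 1984 and 1175 CPM in members and 493 and 277 CPM in other cells.

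Genes of the SHH pathway and of the granule lineage stood lower in members. At P12, 5 of 7 SHH pathway genes were past 2-fold lower and 0 higher, and at P24-30, 4 of 5 lower and 1 higher (median log2 ratios -1.70 and -1.40). Gli1, a transcription factor and target of the pathway, had 3 UMIs in P12 members and 8 in P24-30 members. Ptch1 was at 61.2 CPM in P12 members against 158 CPM in other cells, and at P24-30 at 8.25 CPM (2 UMIs) against 12.4 CPM, a ratio whose interval included 1. Mycn was at 38.2 against 301 CPM at P12 and 49.5 against 167 CPM at P24-30. Sfrp1, a secreted inhibitor of WNT signalling, was at 382 against 2193 CPM at P12 and at 487 against 1287 CPM at P24-30. The cyclin Ccnd1 was at 2503 CPM in P24-30 members, with 510 of its 607 UMIs in 1 cell (449.6 CPM in other cells), and at 820 CPM in the 5-or-more members. All 9 granule lineage and tumour genes with enough UMIs were past 2-fold lower at P12, and 6 of 9 at P24-30 (medians -2.24 and -1.20). Neurod1, a factor of granule neurons, was at 107 CPM in P12 members against 985 CPM (ratio 0.109, 0.0722 to 0.157) and at 276 against 902 CPM at P24-30 (0.306, 0.237 to 0.389). The other genes that stood lowest at both ages were Gm2694, Cenpa, D430041D05Rik, Draxin, Cenpf, Ier5, Cdk6, Fgf9 and Hpca. The granule list summed to 635 CPM in P12 members and 409 CPM in the 5-or-more members, against 2970 CPM in other cells. At P24-30 it was 1381 and 1131 CPM against 3204 CPM, with at least 3 of these genes in 22 of the 63 members.

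Fewer members than other cells held many UMIs of cell cycle genes. With every cell thinned to 500 UMIs, at least 5 UMIs of G2 and M phase genes were found in 22 of 129 P12 members (17.1%, 11.01 to 24.7%) and in 52.5% of other cells. At P24-30 they were found in 6 of 63 members (9.52%, 3.58 to 19.6%) and in 38.1% of other cells. After the same thinning, members with 5 or more markers gave 10 of 82 and 3 of 30, and microglia-like cells 17.8% and 8.93%. Without thinning, the shares of members and other cells were 49.6% and 82.8% at P12 and 49.2% and 73.4% at P24-30. Of the 44 G2 and M phase genes with enough UMIs at P12, 35 were past 2-fold lower in members and none higher, and at P24-30 29 of 35 (medians -1.45 and -1.68). The kinase Cdk6 was at 87.9 CPM in P12 members and 506 CPM in other cells, and the centromere protein Cenpf at 463 and 1328 CPM.

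**Figure D3:**
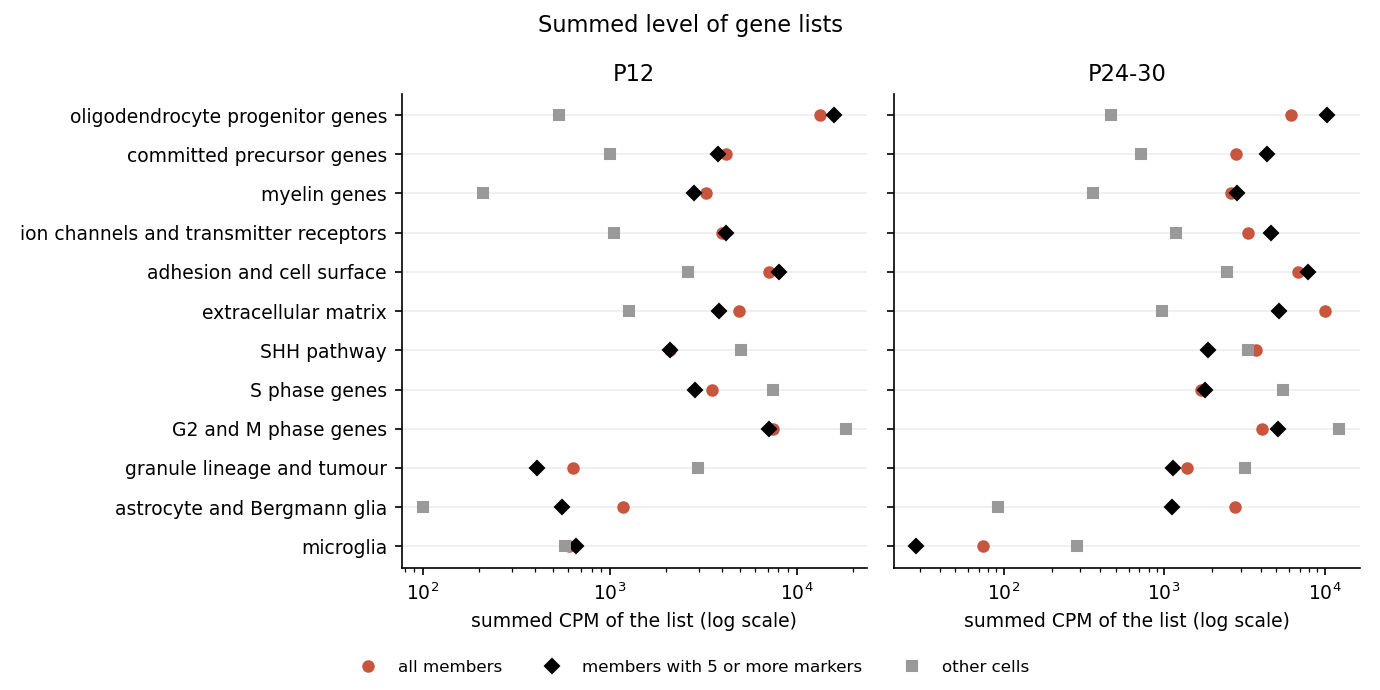
Summed CPM (x axis, log scale) of 12 gene lists in all members (red circles), members with 5 or more markers (black diamonds) and other cells (grey squares), for P12 (left) and P24-30 (right). Progenitor genes stand at 15789 and 10333 CPM in the 5-or-more members against 534 and 468 CPM in other cells, and the cell cycle lists lie to the left of other cells at both ages.

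The members were also split by UMIs of Pdgfra and Gpr17, both rule markers. At P12, 51 members had Pdgfra without Gpr17, 35 had both, 20 had Gpr17 without Pdgfra and 23 had neither. At P24-30 these numbers were 22, 13, 11 and 17. Absence of a UMI does not show absence of the transcript at these depths (median 1509 UMIs with Pdgfra alone, 1814 with Gpr17 alone at P12, and 1760.5 and 2330 at P24-30). The split was made after earlier results of these data were known, and it was not tested.

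The listed committed precursor genes summed to 1974 CPM in P12 cells with Pdgfra alone, 2586 CPM in those with both and 15110 CPM in those with Gpr17 alone. At P24-30 the sums were 1436, 3646 and 12012 CPM. The genes below were chosen after their values were seen. Enpp6, a choline phosphodiesterase of newly formed oligodendrocytes, had 867 CPM in cells with Gpr17 alone at P12 and 591 CPM in those at P24-30, where 11 of its 16 UMIs were in 1 cell. It was at 0 UMIs at P12 in cells with Pdgfra alone and in those with both genes, and at P24-30 it had 1 UMI with Pdgfra alone and 0 with both. Bmp4, a secreted ligand of committed precursors, was at 495 and 444 CPM with Gpr17 alone, in 7 of 20 and 7 of 11 cells. The remaining members held 0 Bmp4 UMIs at P12 and 3 at P24-30, those 3 in 1 cell. Cnp was at 105, 285 and 2130 CPM with Pdgfra alone, both and Gpr17 alone at P12 and at 122, 233 and 1811 CPM at P24-30. Bcas1, a gene of early myelinating cells, was at 287, 427 and 2799 CPM at P12 and at 197, 1202 and 2144 CPM at P24-30. Neu4, a sialidase, was at 67.1, 90.5 and 545 CPM at P12, and at 28.2, 310 and 185 CPM at P24-30, where it was highest in the cells with both.

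G2 and M phase genes summed to 13299 CPM in P12 cells with Pdgfra alone, 4061 CPM with both and 2006 CPM with Gpr17 alone. At P24-30 they summed to 5894, 4383 and 2661 CPM. Counted per cell after thinning, at least 5 such UMIs were held at P12 by 3 of 45 of the 5-or-more members with Gpr17 and 7 of 37 without it, and at P24-30 by 2 of 17 and 1 of 13. The cells with neither gene held 5018 CPM of astrocyte and Bergmann glia markers at P12 and 6929 CPM at P24-30. In the cells with Gpr17 alone these markers were at 421 and 111 CPM.

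**Figure D4:**
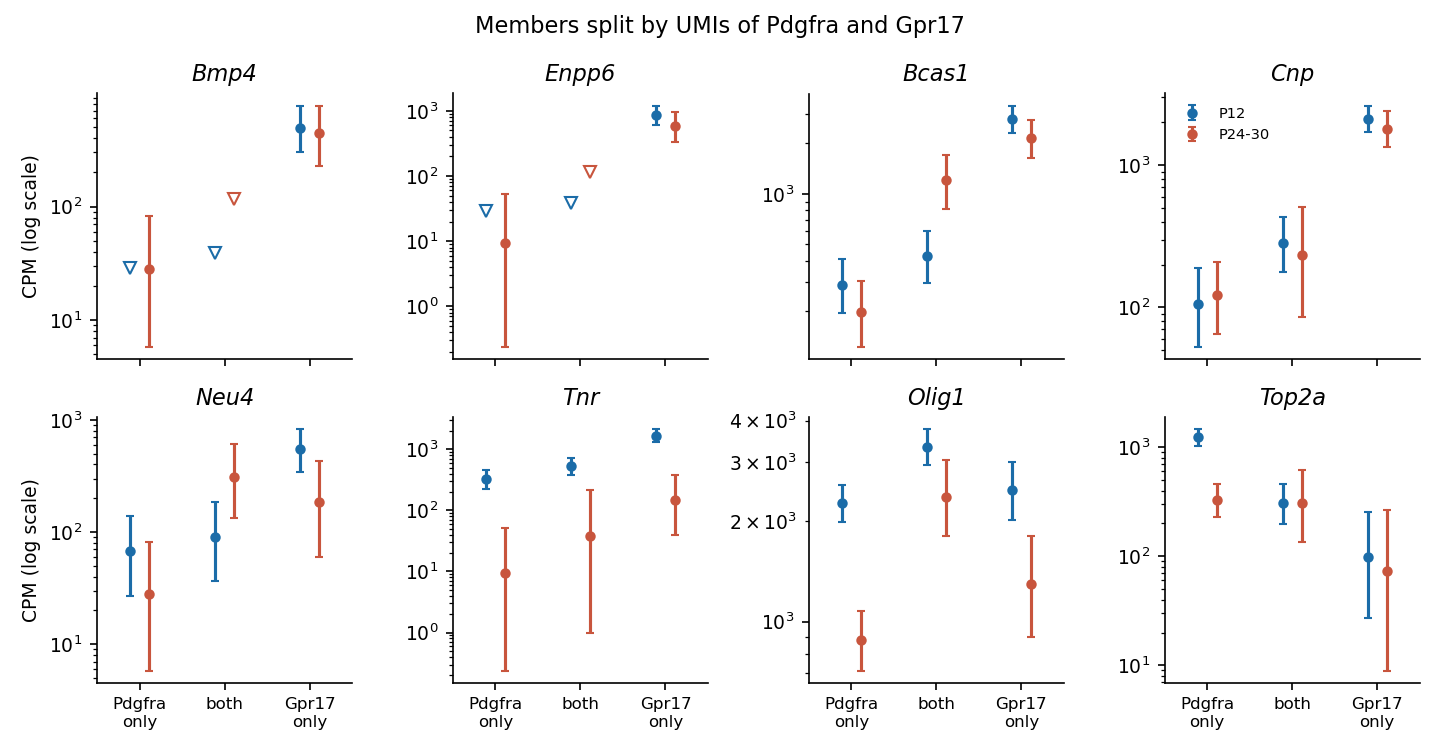
CPM of 8 genes (y axes, log scale) in members with a UMI of Pdgfra only, of both genes, or of Gpr17 only (x axis), at P12 (blue) and P24-30 (red). Bars are exact Poisson 95% intervals and open triangles mark groups with 0 UMIs, drawn at the level of 3 UMIs. Bmp4, Enpp6, Bcas1 and Cnp are highest with Gpr17 only at both ages, and Top2a is highest with Pdgfra only at P12 (1226 CPM).

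The promoters of 3 of these genes are shown. All 3 genes were highest in the cells with Gpr17 alone at both ages, as was Bcas1, whose promoter is not shown. The sequences are the 250 bases before each start in the RefSeq tables of build GRCm38.p6, written 5′ to 3′ on the gene's strand, with matches of the SOX core letters ACAAT or ACAAAG, on either strand, in capitals. The motifs share the letters ACAA.
Bmp4 (chr14:46390670-46390919, minus strand): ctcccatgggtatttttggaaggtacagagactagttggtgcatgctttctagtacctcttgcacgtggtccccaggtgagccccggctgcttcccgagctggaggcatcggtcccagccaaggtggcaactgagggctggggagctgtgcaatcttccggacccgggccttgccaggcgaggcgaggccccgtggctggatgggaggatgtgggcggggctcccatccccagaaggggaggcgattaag
Cnp (chr11:100574689-100574938, plus strand): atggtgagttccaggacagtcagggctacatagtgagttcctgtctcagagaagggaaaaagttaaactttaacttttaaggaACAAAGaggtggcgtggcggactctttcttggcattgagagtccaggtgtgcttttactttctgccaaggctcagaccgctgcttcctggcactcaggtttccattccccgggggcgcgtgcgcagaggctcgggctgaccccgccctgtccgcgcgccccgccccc
Enpp6 (chr8:46986637-46986886, plus strand): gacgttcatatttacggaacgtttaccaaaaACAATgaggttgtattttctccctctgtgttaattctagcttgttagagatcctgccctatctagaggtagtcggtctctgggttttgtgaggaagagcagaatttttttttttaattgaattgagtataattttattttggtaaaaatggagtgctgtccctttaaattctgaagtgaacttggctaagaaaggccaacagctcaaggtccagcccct
Cnp held ACAAAG once, 167 to 162 bases before the start, and Enpp6 held ACAAT once, 219 to 215 bases before it. Bmp4 held neither in this window. Among all 32851 promoters of this length, 27.7% held ACAAT and 16.5% held ACAAAG. Of the 20 genes highest at both ages, 13 had a promoter in the table, of which 2 held ACAAT and 3 ACAAAG. Of the 8 rule markers, 5 had one, of which 1 held each. In these 2 sets a gene counted when any of its promoters held the letters, whereas the shares over all promoters count each promoter. The letters are a description of the sequence only. The promoters differed in base composition, with 63.2% G and C in Bmp4, 57.2% in Cnp and 38.4% in Enpp6.

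Few genes of mature myelin had enough UMIs, 7 of 22 at P12 and 6 of 25 at P24-30. The list still summed higher in members than in other cells, at 3281 against 209 CPM and 2598 against 363 CPM. Of 22 myelin genes named in the P12 file, 4 had no UMI in members, and of 25 in the P24-30 file, 6. Mbp, myelin basic protein, was at 161 CPM in P12 and 42.4 CPM in P24-30 members with 5 or more markers, against 46.5 and 43.2 CPM in other cells. At least 3 myelin genes were found in 28 of 129 members at P12 (21.7%) and in 27 of 63 at P24-30 (42.9%). The rule does not ask for myelin genes, and at least 3 of them were also found in 33 other cells at P12 (0.563%) and in 52 at P24-30 (1.09%). Those 33 and 52 other cells held no Cspg5 UMI at either age.

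Across age, the ratios over all members include the deep P24-30 cells. Ratios here are P24-30 over P12, divided by the median gene of the same cells (0.847 in members, 0.966 in the 5-or-more members, 0.848 in other cells). In all members 591 of 3359 genes (17.6%) were at least 2-fold higher at P24-30 and 338 (10.1%) at least 2-fold lower. In the 5-or-more members these were 236 of 1624 (14.5%) and 133 (8.19%), and in other cells 1738 of 12969 (13.4%) and 514 (3.96%). The 10 genes with the highest ratios in members were Ttr, Tuba1c, 1500015O10Rik, Gm10036, Fxyd1, Kl, Enpp2, Htr2c, Ftl1 and Igf2. Of the Ttr UMIs of P24-30 members, 4733 of 4759 were in the deepest cell, and Kl, Htr2c and Igf2 were each found in 1 cell. The ratio of Enpp2 was 38.9 in all members and 1.54 (0.836 to 2.76) in the 5-or-more members, and that of Ttr in the latter rested on 2 and 7 UMIs. Tuba1c, Gm10036 and Ftl1 share sequence with close copies, so their counts are uncertain. They had high ratios in other cells too, at 36.6, 116 and 107. Ppia, an abundant gene with many copies, had a ratio of 96.4 in other cells and 80.6 in the 5-or-more members.

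Among lineage genes in the 5-or-more members, Tnr stood far lower at P24-30. This gene, on chromosome 1 (mm10, 159523769 to 159931729, plus strand), encodes tenascin-R, a matrix protein made by oligodendrocyte-lineage cells. It had 116 UMIs in 50 of 82 P12 cells (669 CPM) and 5 UMIs in 3 of 30 P24-30 cells (70.7 CPM), a ratio of 0.109 (0.0349 to 0.263). In other cells it was at 1.58 and 0.669 CPM, a ratio of 0.498 (0.189 to 1.19). The P24-30 members held 6 Tnr UMIs in all, too few to compare the cells with and without Gpr17. Fabp7 was at 2687 and 989 CPM, a ratio of 0.381 (0.292 to 0.491), and at 0.235 (0.196 to 0.281) in other cells. Luzp2, a progenitor gene, had 64 UMIs and 2 UMIs (0.0793, 0.0094 to 0.298), and Ptprz1, a rule marker, a ratio of 0.523. The levels of rule markers depend on the choice of the cells, so their age ratios are descriptions of the chosen cells. The ratio of Cacng4 was 2.62 (1378 and 3491 CPM), against 1.66 in other cells. Bcas1 had a ratio of 1.59 (1.16 to 2.17), against 0.965 in other cells. The rule markers Pdgfra and Gpr17 had ratios of 0.861 and 1.15.

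The remaining genes of the lowest 10 by age in all members were Hist1h1b, Hist1h1e, Sox11, Tonsl, Cenpk, Igsf9b, Gatad2b, C1qc and Xylt1. Histone genes have near-identical copies and are uncertain, and Hist1h1b and Sox11 were lower in other cells as well, at ratios of 0.0484 and 0.0604. C1qc, a microglial gene, had 36 UMIs in 4 P12 members. In the 5-or-more members at P24-30, Sox11, Tonsl, Cenpk, Gatad2b and C1qc had 0 UMIs. Of the 26 progenitor genes, 24 had enough UMIs for the age comparison in all members, with 12 lower and 1 higher. In the 5-or-more members 5 of 22 were lower and 3 higher, and in other cells 6 of 18 were lower and 5 higher. Over all genes, the shares lower were 10.1% in all members, 8.19% in the 5-or-more members and 3.96% in other cells. The shares higher were 17.6%, 14.5% and 13.4%. A fall of this list with age was thus not particular to members. The summed progenitor genes measured in both files came to 14607 CPM at P12 and 10333 CPM at P24-30 in the 5-or-more members. Committed precursor genes were at 3794 and 4354 CPM and myelin genes at 2837 and 2841 CPM. The chaperone Hsp90aa1 was at 225 and 2191 CPM in the 5-or-more members, and at 500 and 2503 CPM in other cells.

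**Figure D5:**
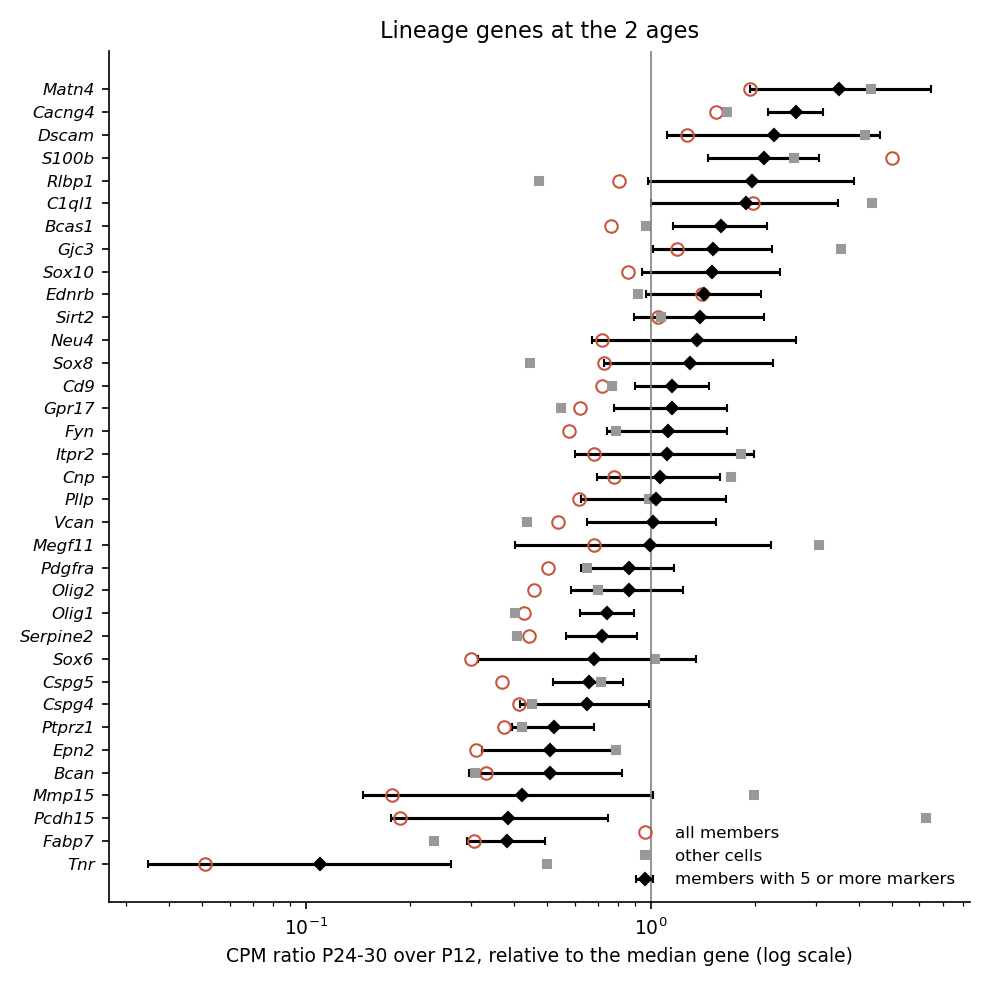
Ratio of CPM at P24-30 over P12, relative to the median gene (x axis, log scale), for 35 lineage genes (rows), in members with 5 or more markers (black diamonds with exact 95% intervals), all members (red circles) and other cells (grey squares, where both ages had more than 3 UMIs). In the 5-or-more members Tnr lies at 0.109 and Cacng4 at 2.62, and in other cells at 0.498 and 1.66.

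Cells with Olig2 but without Sox10 among the non-members, 243 at P12 and 165 at P24-30, share a lineage factor with the members. Their Olig2 level was 548 and 345 CPM by their choice, and Olig1 was at 708 and 169 CPM, against 2505 and 907 CPM in members. They had 10.1 and 12.6 CPM of Cspg5, 33.7 and 16.2 CPM of Fabp7, and 0 UMIs of Gjc3. The proliferation gene Mki67 was at 1800 and 648 CPM in them, and at 571 and 254 CPM in the 5-or-more members. After thinning, 59.7% and 48.5% of them held at least 5 UMIs of G2 and M phase genes. Sox9, a factor of glia and neural stem cells, was at 278 and 194 CPM.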

How the data were processed

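Drop-seq libraries of 6000 cells at P12 (12265399 UMIs) and 4991 at P24-30 (12256463 UMIs) were used. The P12 file holds raw counts per gene and cell as the authors deposited them, taken as UMIs. The P24-30 file holds the natural log of 1 plus 10000 times each gene's share of a cell's UMIs, made by the authors, as the deposited values show. The undone values sum to 9368 to 10000 per cell, so in some cells part of the UMIs behind the shares is not among the values used here. UMIs were recovered by dividing expm1 of each value by the cell's smallest nonzero expm1, and 100% of values came out whole within 0.001. The submitters' processing notes name CASAVA and mm10, and no label used here gives the aligner or counter.

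UMIs were summed over cells and divided by all UMIs of those cells. A ratio needed at least 30 UMIs, counting those found in members plus those expected at the level of other cells (for the age ratio, the sum of both ages), and was called past 2-fold when its exact conditional 95% interval also lay on that side of 1. Age comparisons used 16540 gene names found in both files, 485 of them matched through synonyms. Shares have exact Clopper-Pearson intervals. No p-value was computed, since each age has 1 library. Doublets were not called. Cells named microglia-like or astrocyte and Bergmann glia-like rest on listed markers. The 20 genes highest and 10 lowest in both files by the interval bound nearest 1, the 10 at each end of the age ratio, and the leading members of 27 lists (613 genes) were named by rule, and Luzp2, Ppia and the genes given by Pdgfra and Gpr17 UMIs were chosen after their values were seen. The members and lists were chosen with earlier results of these data known. The ratio calculation was tested on simulated Poisson counts without variation between cells. In these data single cells held most UMIs of some genes, a setting the simulation did not cover. Alternatives covered the marker rule, depth, mitochondrial share, other cells' markers, gene minimum and scaling. Python 3.11.15, numpy 2.4.6, scipy 1.17.1, pandas 2.3.3 and matplotlib 3.10.9 were used. Some genes are not reported here.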

Additional observations from a re-analysis of the deposited data

Results flagged for a closer look

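Ttr, which encodes the transport protein transthyretin and is abundant in choroid plexus, lay on opposite sides of other cells at the 2 ages. Its ratio of members over other cells was 0.0372 at P12, with 4 UMIs in members, and 16.03 at P24-30, with 4759 UMIs. Of these, 4733 were in 1 cell. In members with 5 or more rule markers the ratio was 0.0281 and 0.0808. The difference between the ages was not tested.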

How the results depend on the processing

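The share of member cells was 2.15% at P12 and 1.3% at P24-30. It was 4.66 and 3.45% with at least 2 rule markers, 1.67 and 0.992% with 4, 1.37 and 0.62% with 5, 1.15 and 0.599% with markers counted after thinning to 500 UMIs, 0.684 and 0.579% with Sox10 required, and 1.69 and 0.909% with 3 of 6 markers without Pdgfra and Cacng4. Leaving out members with granule lineage markers gave 0.851% at P24-30. Genes at least 2-fold higher in P12 members numbered 382, and 192 after thinning, 124 with Sox10 required, and 1075, 73 and 2149 with a minimum of 10, of 100 and with no minimum of UMIs per gene. Lower genes at P12 numbered 420, and 68 with 2 markers, 266 thinned, 212 with Sox10, and 794, 120 and 891 under those minimums. At P24-30 the higher and lower genes numbered 414 and 445. They were 232 and 188 with 4 markers, 95 and 128 with 5 against all cells with fewer, 120 and 208 thinned, 76 and 83 with Sox10, 145 and 195 without granule-marked members, 240 and 207 without cells above the 99th percentile of UMIs, 241 and 226 with the 6 markers, and 230 and 192 without the 3 deepest members. The minimums gave 1356 and 846, 100 and 178, and 2411 and 964. With 2 markers 94 were lower, and without members marked by glia, microglia or vessels 258 were higher. Across age, 591 genes were higher and 338 lower in members. These became 236 and 133 with 5 markers, 234 and 134 thinned, 208 and 104 with Sox10, 293 and 179 without granule-marked members, and 1116 and 597, 206 and 94, and 1131 and 811 under the minimums. Lower genes were 533 when not divided by the median gene and 224 without the 3 deepest members. The age ratio of Enpp2 in members, 38.9, was 0.894 with 4 markers, 0.914 with Sox10 and 0.942 with the 6 markers. That of Gpr17, 0.622, was 1.15 with 5 markers, 1.35 thinned, 1.23 without granule-marked members and 1.13 as a mean of each cell's CPM. Fewer cells enter the stricter rules, and otherwise the cause was not tested. Of the values of named genes under the alternatives, 831 against other cells moved within their intervals, 309 moved further and 0 changed direction (counted where the reported interval excludes 1), and across age these were 363, 101 and 7. The 6-marker rule and the removal of the 3 deepest members were chosen after seeing the data.

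No paired analysis was possible because each age has 1 library and no result comes from a test. A gene missing from a cell cannot be told from one not captured at a median of 1659 and 2120 UMIs per member.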
